A study of Gallus gallus with 2 samples.

Results

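MYC, MYCN, MAX, MXI1, MNT, MLX and UBTF were followed on an Affymetrix chicken expression array as probe sets whose platform gene symbol is one of these 7 names. Of the 7 genes, 6 had at least 1 probe set (11 probe sets in all), and 5 genes (7 probe sets) were measured, which here means a signal above the floor of 98.2 on at least 1 array. On the same arrays 7977 named genes were measured. MAX had no probe set by symbol or by gene identifier in the annotation used here, and both MYCN probe sets were under the floor, so neither gene has a ratio.

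The cells were DT40, chicken B cells grown from a virus-induced lymphoma of the bursa, and each genotype gave 1 array. In the H2A.Z-2 KO cells the gene of the histone variant H2A.Z-2 was knocked out (KO) permanently. The other line, H2A.Z-1 KO, carried the sister variant H2A.Z-1 on a transgene that tetracycline shuts off. Both cultures were kept with tetracycline at 2 µg/ml for 72 hours, so the drug is common to both groups. No wild-type culture was analysed here, so a ratio sets one knockout against the other and assigns no gain or loss to either. A single array for each genotype allows no replicate error and no test, and precision is limited by the number of arrays.

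MYC is a basic helix-loop-helix leucine zipper transcription factor that binds E-box DNA only as a dimer with MAX. Members of the MXD family, including MXI1, and the related MNT and MGA also pair with MAX and compete with MYC; the MXD proteins and MNT recruit SIN3 and histone deacetylases to repress. MLX is the partner of MLXIP (MondoA) in a parallel, nutrient-sensing arm and also dimerises with some MXD proteins and MNT. UBTF is not a MAX partner but an HMG-box protein that keeps ribosomal RNA genes open for RNA polymerase I, a process that MYC stimulates. In bursal lymphomas of the kind DT40 derives from, a retrovirus integrated at MYC drives its expression.

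Both arrays had the same 2% trimmed mean signal, 500.2 and 500.1 over 38535 probe sets. H2AFZ, which encodes H2A.Z-1, gave 614.6 on the H2A.Z-1 knockout array and 27642 on the other, and H2AZ2 gave 20911 and 42.1. Each array was thus the lower of the 2 for the transcript its label names. H2AZ2 was under the floor on its knockout array. H2AFZ was still 6.26 times the floor on its own, from a probe set of a type not specific to 1 transcript. Of 10 B-cell marker genes 8 had probe sets and all 8 were measured, EBF1 through the H2A.Z-1 knockout array only. Of those with probe sets, 0 of 1 erythroid or thrombocyte, 1 of 3 myeloid, 2 of 5 fibroblast and 2 of 5 T-cell markers were measured. Over all named genes, 7977 of 13009 were measured, so counts this small do not settle whether a cell type was present. The sum of the brightest probe set per B-cell marker was 43644 on the H2A.Z-1 knockout array and 18291 on the H2A.Z-2 knockout array, most of it from POU2AF1 (14090 and 9588), CD79B (10163 and 1160), CD72 (6334 and 1320) and BTK (5885 and 2253). EBF1 gave 781 and 21.3, the second of these under the floor, and IKZF3 1975 and 331. SYK differed less (4288 and 3415), and PAX5 went the other way (127 and 203). The part of these markers in the ratios below was not tested. The T-cell sums were 9422 and 7805, nearly all of it CD3D (9211 and 7509), with CD3E, CD4 and CD28 under the floor on both arrays. The myeloid sums were 127 and 266, the fibroblast sums 527 and 427, and the erythroid sums 56.7 and 39.6. Of the myeloid markers only TLR4 passed the floor, at 119 on the H2A.Z-2 knockout array against 2.37 on the other. The erythroid sums, all from HBA1, were under the floor. So were the fibroblast markers COL3A1, PDGFRB and DCN on both arrays. These sums thus rest largely on signals without a reliable order. In a culture, fewer cells of a type and less RNA per cell cannot be told apart.

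Among the 5 measured genes, UBTF differed most, MXI1 and MYC differed by a smaller amount in the same direction, and MNT and MLX were nearly equal on the 2 arrays. UBTF, MXI1 and MYC all had the higher signal in the H2A.Z-2 knockout cells. One gene, UBTF, passed the 2-fold threshold, against 6.67% of all measured genes in either direction and 3.80% in the direction of UBTF. At 1.5-fold, 2 of the 5 members (UBTF and MXI1) were higher on the H2A.Z-2 knockout array, against 11.6% of all genes, and none was higher on the H2A.Z-1 knockout array, against 7.56%. Under median centring MXI1, at -0.37, was no longer past 1.5-fold. The median log2 ratio of the 5, H2A.Z-1 over H2A.Z-2 knockout, was -0.57, beside a median of -0.064 and quartiles of -0.32 and 0.19 over all measured genes. Without UBTF, which is no MAX partner, the median of the other 4 was -0.30, inside those quartiles.

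**Figure D1:**
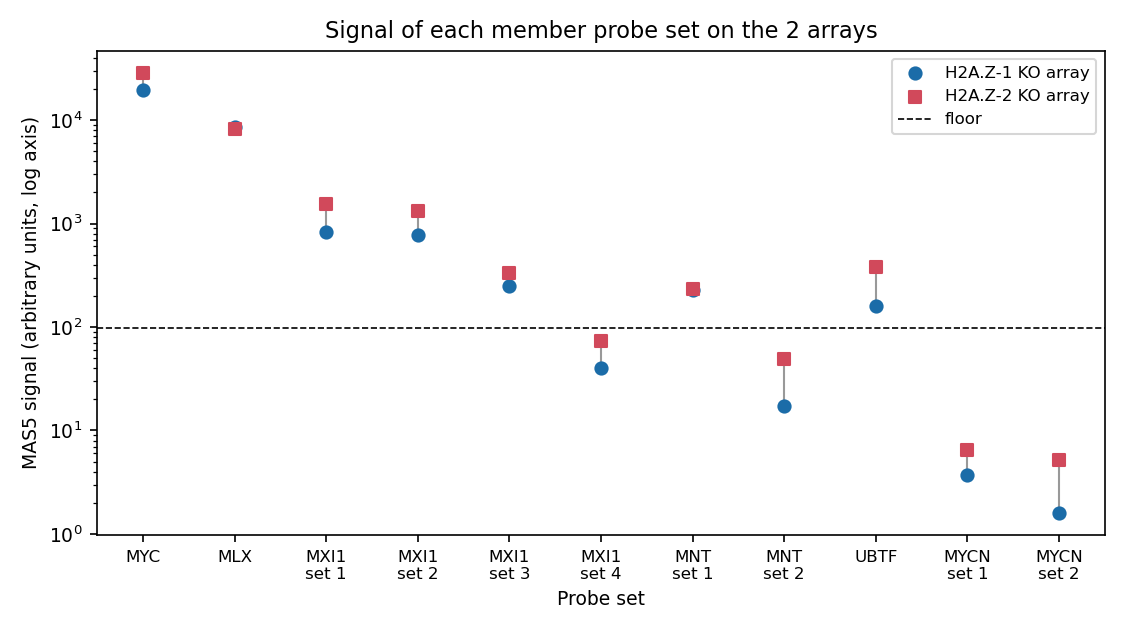
MAS5 signal (log axis) of each of the 11 member probe sets on the H2A.Z-1 knockout array (circles) and the H2A.Z-2 knockout array (squares), 1 array each, with the floor of 98.2 as a dashed line; probe sets of 1 gene are numbered by falling signal. MYC, UBTF and all MXI1 probe sets have the higher value on the H2A.Z-2 knockout array, MLX and the first MNT probe set have overlapping points, and both MYCN probe sets lie under 10.

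MYC, the activating partner of MAX, is on chromosome 2. Its single probe set gave 19322 on the H2A.Z-1 knockout array and 28614 on the H2A.Z-2 knockout array. Both signals lay above 99.4% of the probe sets of their array, and the H2A.Z-2 knockout value was 1.48-fold higher, a log2 ratio of -0.57. With arrays centred on their medians the log2 ratio of MYC was -0.25, when the median of all genes was 0.23. Of all measured genes 12.3% had a lower ratio. The 621 probe sets with a mean signal of at least 10000, a limit chosen after the values were seen, had a median log2 ratio of -0.028 and an SD of 0.26, and 90% of them lay between the 5th percentile of -0.38 and the 95th of 0.37. MYC lay outside that span. The probe set is not marked as matching several transcripts, but no second one stands beside it.

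MYCN, the paralogue of MYC best known from neural tissue and neuroblastoma, is on chromosome 3. Its probe sets gave 3.74 and 1.598 on the H2A.Z-1 knockout array and 6.44 and 5.13 on the H2A.Z-2 knockout array. All 4 values were far under the floor, where MAS5 signals have no reliable order, and no fold is given.

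MXI1, on chromosome 6, encodes a MAX partner of the MXD family and has the most probe sets of the group. The brightest gave 832 on the H2A.Z-1 knockout array and 1528 on the H2A.Z-2 knockout array, a log2 ratio of -0.88. The second gave 775 and 1314, a log2 ratio of -0.76. On both, the H2A.Z-2 knockout signal was the larger. The next gave 248 and 329, a log2 ratio of -0.41. The dimmest was under the floor on both arrays, at 40.1 and 72.9. All 3 measured probe sets were thus higher on the H2A.Z-2 knockout array, and their mean log2 ratio was -0.68 with an SD between probe sets of 0.24, a 1.61-fold difference. This SD describes probes within 2 arrays and not cultures. Of all measured genes 8.59% had a lower ratio. The second and the next probe sets are of a type not specific to 1 transcript; the brightest is not so marked.

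MNT, a MAX partner that represses MYC targets in dividing as well as resting cells, is on chromosome 19. Its measured probe set gave 226 on the H2A.Z-1 knockout array and 233 on the H2A.Z-2 knockout array, a log2 ratio of -0.041, which turned positive under median centring (0.27), quantile normalization (0.069) and removal of the brightness trend (0.067). The other gave 17.2 and 48.8, under the floor on both arrays. With the floor at the 40th percentile this probe set entered the mean, which then was -0.21, and without a floor the mean was -0.75, so the near equality of MNT rests on its brighter probe set.

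MLX, a gene of chromosome 27, had signals of 8577 on the H2A.Z-1 knockout array and 8247 on the H2A.Z-2 knockout array. This is a log2 ratio of 0.057, the only positive one among the 5 members. Its probe set is of a type not specific to 1 transcript.

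UBTF lies on the same chromosome 27 and had 1 probe set, with 158 on the H2A.Z-1 knockout array and 379.7 on the H2A.Z-2 knockout array. These signals were 1.61 and 3.87 times the floor, so both were above it but dim. The H2A.Z-2 knockout value was 2.40-fold higher, a log2 ratio of -1.26, and 2.19% of all measured genes had a lower one. Centred on array medians it was -0.95, under 2-fold, beside a median of 0.23 for all genes. At a floor of the 80th percentile UBTF was not measured. Among the 7713 measured probe sets with a mean signal up to 4 times the floor, a limit chosen after the values were seen, 8.88% passed 2-fold in either direction, with a median log2 ratio of -0.12 and an SD of 0.64.

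Probe sets of the same gene had a pooled SD, over 3588 genes with at least 2 measured probe sets, of 0.36 on the log2 scale, which serves here as a yardstick of probe differences only. It is the SD of single probe sets at any brightness and not of a gap between 2 genes, so the multiples below run high. Among dim probe sets, where UBTF lies, the log2 ratios had an SD of 0.64. In log2 ratio MYC and MXI1 differed by 0.12 and MNT and MLX by 0.097, both less than this SD. MYC and MLX differed by 0.62 and MXI1 and MLX by 0.74, which is 1.72 and 2.05 SD. UBTF and MLX differed by 1.32, or 3.65 SD. The nearer gaps were smaller: MNT and MYC differed by 0.53, or 1.45 SD, and MXI1 and UBTF by 0.58, or 1.60 SD. At this floor the order of the log2 ratios was UBTF lowest, then MXI1 and MYC, then MNT and MLX. Without a floor MNT, at -0.75, was below MXI1 at -0.72 and MYC at -0.57.

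**Figure D2:**
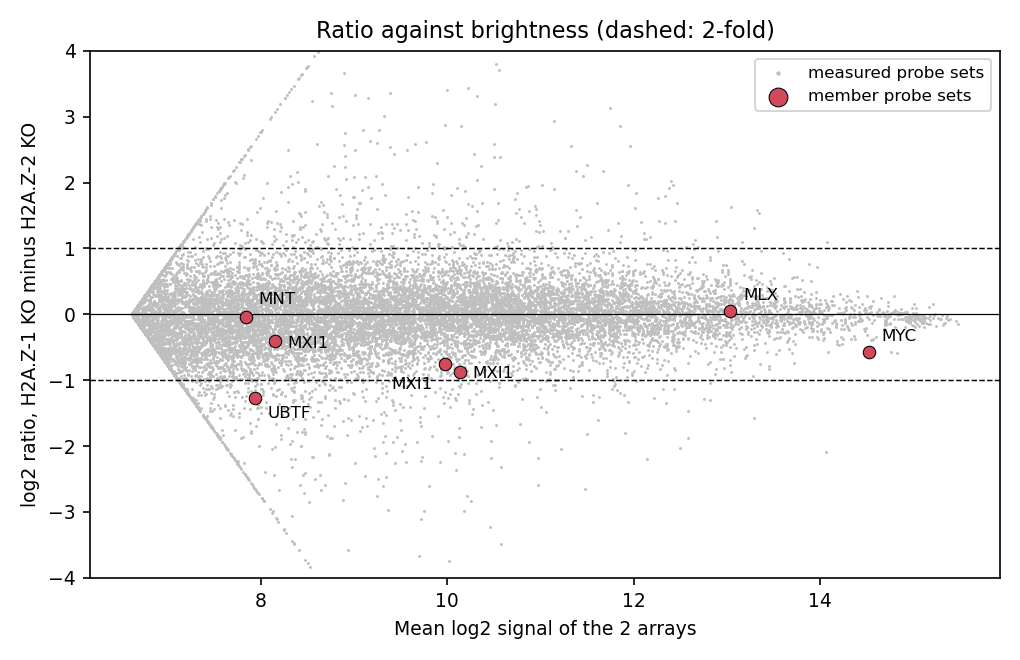
Log2 ratio (H2A.Z-1 over H2A.Z-2 knockout) against mean log2 signal for 16701 measured probe sets (grey) and the 7 measured member probe sets (red), with 2-fold as dashed lines; 29 probe sets beyond a log2 ratio of 4 in either direction are outside the axis. MYC sits below the narrow cloud of bright probe sets at -0.57, and UBTF is the one member past a dashed line, among dim probe sets.

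To place the members within the wider network, the other MAX network genes were read from the same arrays. Of 7 listed genes 5 were measured, while MYCL and MLXIPL had no probe set under their symbols. None passed 2-fold, against 6.67% of all measured genes. Of the 5, 2 were lower and 3 higher on the H2A.Z-1 knockout array, while 57.4% of all measured genes were lower there. Counts this small do not set the list apart. Its median log2 ratio was 0.033, beside -0.064 for all genes. MXD4, a repressor of the MXD family associated with differentiation, came closest to 2-fold. Its probe sets gave 608 and 292 on the H2A.Z-1 knockout array and 1194 and 543 on the H2A.Z-2 knockout array. The log2 ratios were -0.97 and -0.90, with a mean of -0.93 or 1.91-fold, and 4.44% of all genes had a lower one. Both probe sets may match several transcripts.

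MXD1, the first described MAX dimerisation protein, had 2 measured probe sets, with 483 and 424 on the H2A.Z-1 knockout array and 517 and 578 on the H2A.Z-2 knockout array. The mean log2 ratio was -0.27, and the 2 values, -0.098 and -0.44, spanned nearly the pooled SD. MXD3, the family member linked to proliferating cells, gave 528 and 505, a log2 ratio of 0.063. The MXD family was therefore split, with MXI1 1.61-fold and MXD4 1.91-fold higher in the H2A.Z-2 knockout cells, MXD1 in the same direction by 1.21-fold and MXD3 nearly equal. Under median centring the log2 ratios were -0.37 for MXI1, -0.62 for MXD4 and 0.042 for MXD1, beside 0.23 for all genes.

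MGA, a large protein with both a T-box and a helix-loop-helix domain that acts in a Polycomb-type complex, had 3 of 8 probe sets measured. Their log2 ratios ran from -0.099 to 0.22, with a mean of 0.033 that became -0.43 without a floor. MLXIP, the partner of MLX, gave 1752 on the H2A.Z-1 knockout array and 1481 on the H2A.Z-2 knockout array on its brighter probe set. The dimmer gave 126 and 63.7, the second of these under the floor. The mean log2 ratio of MLXIP was 0.30, at least 1.23-fold higher in the H2A.Z-1 knockout cells over the probe sets above this floor. MLX and MLXIP thus did not share the direction of MYC, MXI1 and MXD4. Over the 9 measured helix-loop-helix genes, members and others, the median log2 ratio was -0.041, beside -0.064 for all genes. Of the 9, 5 were lower and 4 higher on the H2A.Z-1 knockout array, while 57.4% of all measured genes were lower there. None passed 2-fold, against 6.67% of all measured genes, so these counts do not set the 9 genes apart.

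**Figure D3:**
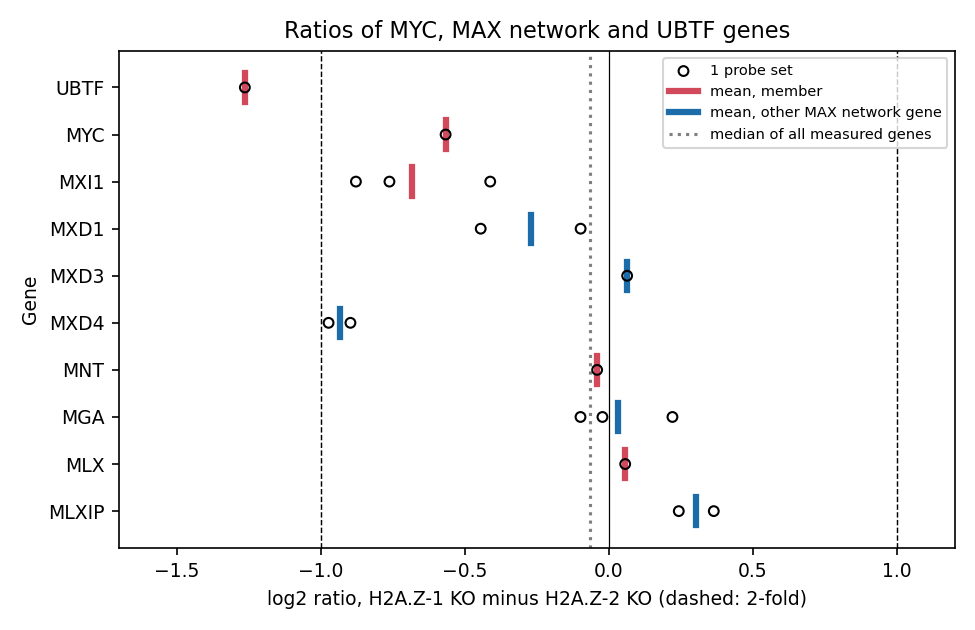
Log2 ratio of each measured probe set (open circles) and mean per gene (bars, red for members and blue for other MAX network genes), with the median of all genes dotted and 2-fold dashed. UBTF alone passes 2-fold; MXD4 (-0.93), MXI1 (-0.68) and MYC (-0.57) follow, and the remaining genes lie between -0.27 and 0.30.

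The list of partner and turnover genes held proteins that bind, modify or degrade MYC. It also held proteins best known for binding DNA or RNA, such as E2F1, CTCF, FUBP1, HNRNPK and CNBP. Of 41 listed, 27 were measured. None was 2-fold higher on the H2A.Z-1 knockout array, against 229 of all 7977 measured genes. On the H2A.Z-2 knockout array 2 were 2-fold higher, against 303 of all 7977 (3.80%). Counts this small show no direction of the list. The list's median log2 ratio was 0.031, against -0.064 for all genes. FBXW7, the F-box protein that targets phosphorylated MYC and other substrates for degradation, gave 765 on the H2A.Z-1 knockout array and 1631 on the H2A.Z-2 knockout array, 2.13-fold higher in the latter. It rests on 1 probe set of a type not specific to 1 transcript, and its log2 ratio was -0.78 under median centring. PIM3, a kinase of a family that phosphorylates MYC, was under the floor on the H2A.Z-1 knockout array and 197 on the other, at least 2.01-fold higher there, and under 2-fold with median centring (-0.87), quantile normalization (-0.95) or the brightness trend removed (-0.79). In the opposite direction MYCBP, a small MYC-binding protein, gave 7024 and 3976, 1.77-fold higher in the H2A.Z-1 knockout cells, with a log2 ratio of 0.82 that became 1.13 under median centring. MYCBP, like FBXW7, rests on 1 measured probe set of a type not specific to 1 transcript. E2F1, a cell-cycle transcription factor, gave 7190 and 4668, or 1.54-fold. FBXW7 and MYC were thus both higher on the H2A.Z-2 knockout array, and E2F1 and MYCBP both lower.

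The corepressors that MXD proteins and MNT recruit had a list median on the other side of 0 from MXI1 and MXD4. Of 25 SIN3 and HDAC complex genes listed, 20 were measured and none passed 2-fold, against 6.67% of all measured genes. Their median log2 ratio was 0.12 against -0.064 for all genes, inside the quartiles of -0.32 and 0.19 of all genes. Of the 20, 6 were below 0 against 57.4% of all genes. ARID4A, a subunit of the SIN3 complex, was 1.53-fold higher on the H2A.Z-1 knockout array over 5 probe sets with log2 ratios from 0.39 to 0.78. The histone chaperone gene RBBP4 was 1.52-fold higher over 4 probe sets from 0.25 to 0.99. Its paralogue RBBP7 had a log2 ratio of -0.28, and ING2, which reads trimethylated histone H3, also -0.28. Both directions depended on the processing: under median centring RBBP7 was 0.030 and ING2 0.032, and ING2 was 0.29 with a floor at the 40th percentile and 0.66 without one.

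UBTF was set beside the rest of the RNA polymerase I machinery and its nucleolar regulators. Of 38 genes listed, 28 were measured and none passed 2-fold in either direction, against 6.67% of all measured genes. Their median log2 ratio was -0.15 against -0.064 for all genes, and 67.9% were below 0 against 57.4% of all genes. Under median centring the list median was 0.16, below the 0.23 of all genes. With only the brightest probe set of each gene the list median was -0.020, above the -0.048 of all genes. TWISTNB, a polymerase I subunit, was lowest at -0.68, with 6166 on the H2A.Z-1 knockout array and 9895 on the other. NOLC1, a nucleolar chaperone, stood at -0.40, with its 2 probe sets at -0.77 and -0.023. TOP1, a DNA topoisomerase, was highest at 0.53, followed at 0.48 by TAF1B, a subunit of the selectivity factor that works with UBTF. The measured TOP1 probe set may match several transcripts. The log2 ratio of UBTF, -1.26, was below that of each of these 28 genes. UBTF was dim, at 158 and 379.7, while the list had a median signal of 2174 against 567 over all measured genes. The part of brightness in this gap was not tested.

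Genes that MYC is known to activate stayed close to equal. Of 60 listed, 47 were measured, none passed 2-fold and none passed 1.5-fold in either direction. Of all measured genes 6.67% passed 2-fold. At 1.5-fold 11.6% of all were higher on the H2A.Z-2 knockout array and 7.56% on the H2A.Z-1 knockout array. Their median log2 ratio was -0.064, the same as for all genes after rounding, with quartiles of -0.17 and 0.037. Of the 47, 31 (66.0%) were below 0, against 57.4% of all genes. The target genes were bright, with a median signal of 4460 against 567 over all measured genes. The part of brightness in their narrow range was not tested. The lowest were NOP56, a nucleolar protein of box C/D particles, at -0.55 over 3 probe sets from -1.54 to 0.011 (its brightest at -0.10), and SRM, spermidine synthase, at -0.46. The highest were SHMT1, of one-carbon metabolism, at 0.38 and CAD, of pyrimidine synthesis, at 0.35 (1.13 without a floor). The measured targets NOLC1, WDR43, NCL, DDX21, NPM1 and MYBBP1A are also on the RNA polymerase I list. HK2 is also on the MondoA and MLX list. These lists therefore share genes and are not separate observations.

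Of 10 genes known to be repressed by MYC, 5 were measured and none passed 2-fold, against 6.67% of all measured genes. Their median log2 ratio was -0.40, with 4 of the 5 below 0 against 57.4% of all genes, and it was 0.062 at a floor of the 80th percentile. GADD45G, a stress-inducible growth arrest gene, stood at -0.89, the mean of 2 unequal probe sets of which the brighter was at -0.28. Both GADD45G probe sets may match several transcripts. CEBPA, a myeloid transcription factor, was under the floor on the H2A.Z-1 knockout array and 148 on the other, at least 1.51-fold higher there; its log2 ratio of -0.60 at this floor became -1.32 at the 40th percentile and -1.80 without a floor. The cell-cycle inhibitor gene CDKN1B stood at -0.24, or 0.069 under median centring, and CCND1, cyclin D1, at 0.53 with 2526 and 1753. Of 4 MondoA and MLX targets 2 were measured, ARRDC3 at -0.52 with signals of 115 and 166, and HK2. HK2 was under the floor on the H2A.Z-1 knockout array and 98.6, barely above it, on the other, so its ratio is set by the floor; it was -0.66 at the 40th percentile and -0.65 without a floor.

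**Figure D4:**
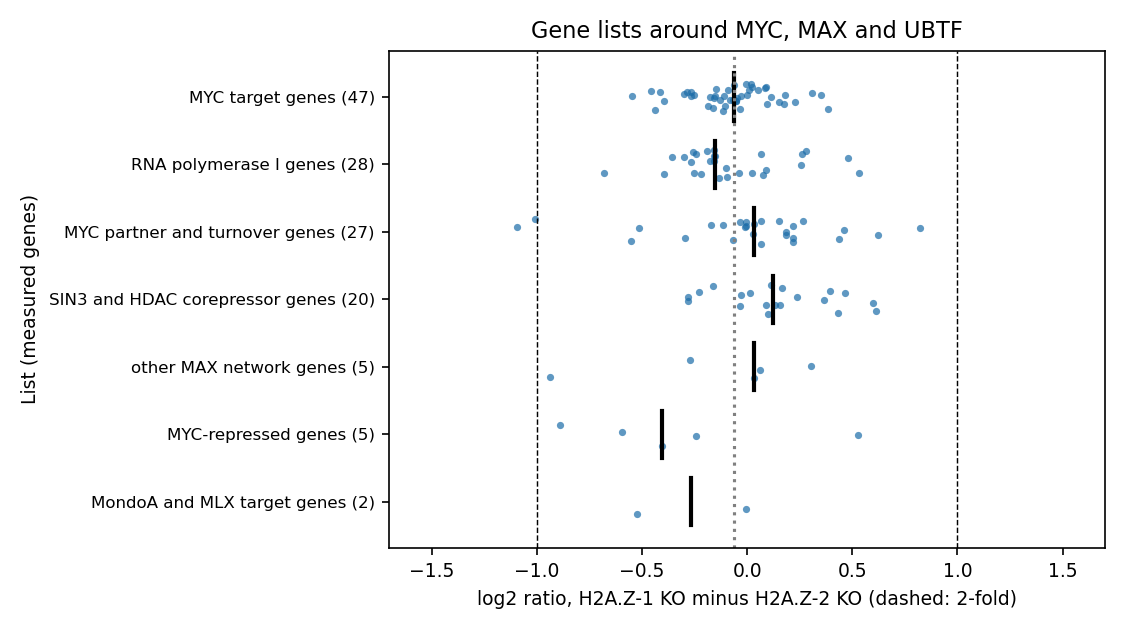
Log2 ratio of every measured gene of 7 lists (points, spread vertically at random for legibility), with each list's median as a black bar, the median of all genes dotted and 2-fold dashed. The 47 MYC target genes lie between -0.55 and 0.38, the SIN3 and HDAC list has its median at 0.12, and the points past 2-fold are FBXW7 and PIM3.

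Genes beside the members on the chromosome were read in the order of assembly GRCg7b. Of the 4 nearest measured genes around MYC, 3 were lower in the H2A.Z-1 knockout cells and 1 was higher. Among all measured genes 57.4% were lower there, so such a count does not set the neighbours of MYC apart. The measured genes flanking MYC were FAM84B at -0.42 and FAM49B at -1.30, and beyond them NSMCE2 at -0.51 and ASAP1 at 0.98. Those flanking UBTF were SLC25A39 at -0.25 and LSM12 at -0.12, and beyond them MAPT at -0.19 and COL1A1 at 0.43 or more. None of the 4 was as low as the -1.26 of UBTF. COL1A1 gave 132 on the H2A.Z-1 knockout array and 10.2, under the floor, on the other, so its ratio is set by the floor. Those flanking MXI1 were ADD3 at -0.26 and SMNDC1 at 0.13, and beyond them XPNPEP1 at -0.087 and DUSP5 at -1.29. Beside MNT, SGSM2 stood at 1.25 and PAFAH1B1 at 0.17, with TNFAIP1 at 0.032 and CLUH at 0.0032 beyond them. The 4 around MLX lay between ATP6V0A1 at -0.38 and PSMC3IP at -0.082.

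Likeness of the mean log2 ratio alone, over 2 arrays, was read among genes with at least 2 measured probe sets that all share a sign. Genes with 1 measured probe set and placeholder names such as LOC numbers were left out. Among the rest FBXL18, SCFD2 and USP24 were nearest to MYC, each at -0.57 after rounding. For UBTF they were OXCT1, SLC36A4 and F5, each at -1.26, SLC36A4 turning to 0.017 without a floor. With a single ratio per gene such likeness is shared by many genes.

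The member ratios were recomputed under 9 other ways of processing and set against the median of all genes under each. UBTF lay between -1.22 and -1.10 of that median, MXI1 between -0.83 and -0.57, MYC between -0.56 and -0.41, and MLX between 0.028 and 0.21. MNT was the least steady, between -0.59 and 0.090. MYC, UBTF and MLX have 1 probe set each, so the choice among probe sets of a gene could not move their own log2 ratios. The bright MYC signal also stayed at -0.57 under the other floors and without a floor. In such settings its relative value moved only with the median of all genes. Median centring shifts the ratios of bright genes alike, so it nearly cancels in a relative value (MYC -0.48, and -0.50 as reported).

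**Figure D5:**
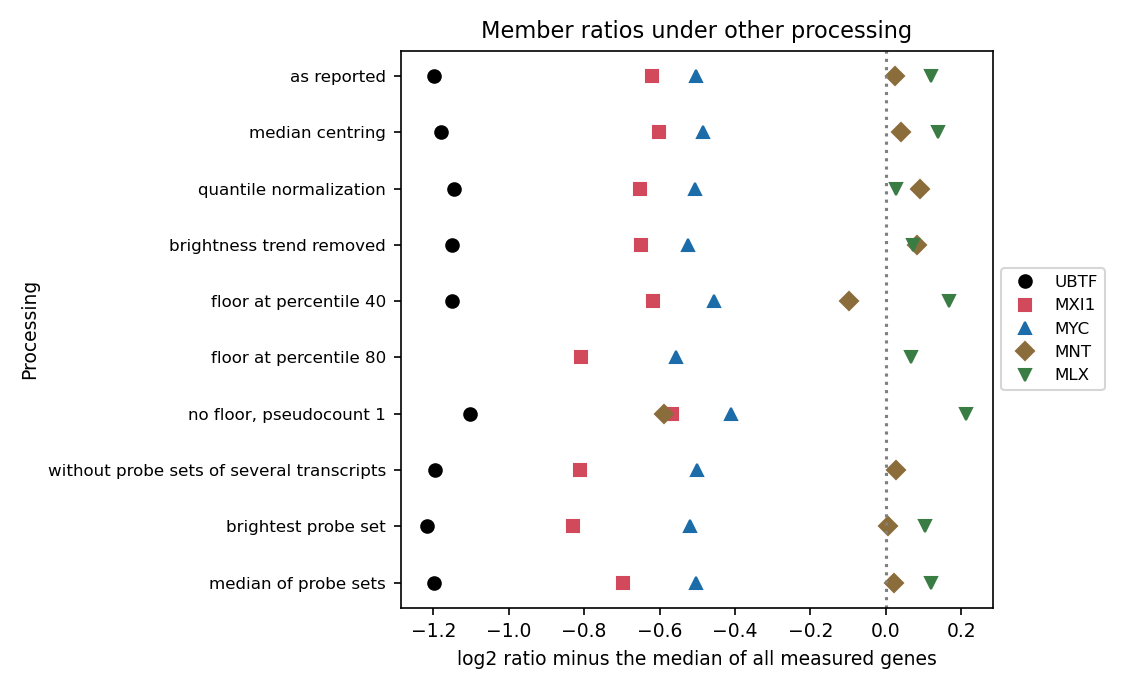
Log2 ratio of each member minus the median of all measured genes (horizontal axis) as reported and under 9 other ways of processing (vertical axis). UBTF, MXI1 and MYC lie left of the dotted line in each row where they were measured, MLX lies right of it, and MNT moves to -0.59 without a floor; UBTF and MNT have no point with the floor at the 80th percentile, nor MLX without probe sets of several transcripts.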

How the data were processed

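Per the labels' protocols, total RNA of 1 culture of each knockout was labelled as biotinylated cRNA and hybridised. The authors deposited linear signal intensities per probe set, which the submitters' processing notes credit to MAS5. The MAS5 version, scaling target and detection calls were not given in the sources used here. Such scaling hides any global difference in RNA per cell.

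The 96 manufacturer controls were left out. Signals under a floor of 98.2, the 60th percentile of the remaining 38439 probe sets, were set to it, and the log2 ratio is that of the H2A.Z-1 over the H2A.Z-2 knockout. A gene is the mean over its measured probe sets, those with at least 1 signal above the floor, and is past the threshold at 2-fold. Names came from the platform annotation, updated by gene identifier through a RefSeq table of GRCg7b, except that members keep the platform symbol; 27178 probe sets had 1 symbol, 177 several and 11180 none. The RefSeq table also gave chromosomes and the order of neighbouring genes only; no coordinate is printed and no sequence was used.

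The genes followed and the lists were chosen with earlier results of these data known. Every member, every measured other MAX network gene, the 2 highest and 2 lowest of each list and each list gene past 2-fold are named. So are the 3 genes nearest in ratio to MYC and to UBTF, by the rule given above. Neighbours on the chromosome were added after the values were seen. The steps were tested on simulated data, with changes planted only in probe sets brighter than those of UBTF and MNT. That test therefore does not cover dim signals such as theirs. Python 3.11.15, pandas 2.3.3 and statsmodels 0.14.6 were used, the last for a lowess trend (fraction 0.3, 3 iterations) as 1 of the alternatives.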

Additional observations from a re-analysis of the deposited data

How the results depend on the processing

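Relative to the median of all genes, MYC (-0.56 to -0.41), MXI1 (-0.83 to -0.57) and UBTF (-1.22 to -1.10) stayed lower on the H2A.Z-1 KO array under each alternative that measured them, and MLX stayed higher (0.028 to 0.21). MYC, UBTF and MLX have 1 probe set each, so the alternatives in the choice of probe sets could not change their own ratios. The other floors could not change the ratio of the bright MYC signal either, and median centring nearly cancels in a relative value. Most of these alternatives were therefore no independent check of MYC. Centring on array medians moved the median of all genes from -0.064 to 0.23; UBTF was then -0.95 and 0 members passed 2-fold. At a floor of the 80th percentile UBTF and MNT were not measured, 0 members passed, and the median of the MYC-repressed genes was 0.062. At 1.5-fold 2 members passed, and at 3-fold 0. Without a floor MNT was -0.75, as its dim probe set entered the mean, and the median of the MondoA targets was -0.65; both lists, and the members without UBTF (median -0.30), were put through alternatives chosen after seeing the data. SLC36A4, near UBTF in ratio, turned to 0.017 without a floor. PIM3 lost its 2-fold call (-0.79) with the brightness trend removed. The list medians of other MAX network, RNA polymerase I, MYC target and MYC-repressed genes changed sign under at least 1 alternative. No paired analysis was possible because each genotype has 1 array. Dim signals, UBTF included, limit what can be read.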
